A study of Homo sapiens with 15 samples.

Results

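In 786-O cells, 284 of the 1812 BMAL1 peaks called with a control hairpin lay away from promoters, overlapped no HIF2α peak and had no overlapping peak in the BMAL1 list after BMAL1 knockdown. These 284 regions are called the lost BMAL1-only distal peaks here. They were chosen by 4 readings of the deposited peak lists. Of the 1812 peaks, 1545 lay outside chromosome 19, which was left out. Of those, 1229 shared no base with a shControl HIF2α peak, and 756 of these shared no base with a shBMAL1 BMAL1 peak. The 284 were the ones among the 756 with a midpoint outside the span from 1000 bp upstream to 100 bp downstream of every annotated transcript start. Distance from start sites, absence from both other lists and the strength that goes with absence are therefore what defines these peaks, and they are given below as description without a test. Whether a peak lay in an intron, an exon or between genes was not used by the rule beyond the distance. In the whole list, 61.3% of the 1812 BMAL1 peaks had no overlapping peak after knockdown.

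The study profiled chromatin binding by CUT&RUN, in which an antibody directs a nuclease to cut out the DNA around a bound protein. The cells were 786-O, a line from a clear cell renal carcinoma that lacks functional VHL, so that HIF2α is not degraded in the presence of oxygen. The shControl cells carried a lentiviral scrambled hairpin and the shBMAL1 cells a hairpin against BMAL1, both under puromycin selection. BMAL1 was profiled in 3 shControl and 2 shBMAL1 libraries and HIF2α in 3 libraries of each, and 4 IgG libraries were not analysed here. Both arms are derivatives of 1 line, and the labels name no separate clones. Each antibody and arm has 1 pooled list, with 1812 BMAL1 and 1204 HIF2α peaks in shControl and 768 BMAL1 and 1089 HIF2α peaks in shBMAL1. The sample labels and the methods call the libraries of a group biological replicates, while the reporting summary calls them technical replicates. The methods state an approximate number of reads per library, but the lists hold no read counts. The depth of each library could therefore not be read from them, and spread between libraries could not be measured. A lost peak is a peak absent from a list built on fewer libraries, and reduced binding and reduced detection cannot be told apart from it. Every p-value below treats peaks as the units and carries no error between libraries.

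BMAL1 (also called ARNTL) is the bHLH-PAS protein that pairs with CLOCK to drive the circadian oscillator, and the pair binds the palindromic E-box. Its targets include its own repressors, the PER and CRY proteins, which close the feedback loop. HIF2α is a relative from the same family. It pairs with ARNT at hypoxia response elements, whose core shares most letters with the E-box. Distal elements such as enhancers lie in introns or between genes, and in many epithelial cells they are marked by AP-1, TEAD and RUNX factors, whereas promoters in CpG islands carry GC boxes and CCAAT boxes.

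The sequences of the peaks show what the statistics below count. All are hg19 on the forward strand, and capitals mark the motif. The first set is the 5 strongest lost BMAL1-only distal peaks with exactly 1 E-box, named by the gene that holds the peak or by the nearest protein-coding gene.
RALGPS1, chr9:129921647-129921706: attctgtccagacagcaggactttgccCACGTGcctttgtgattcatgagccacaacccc
SERTAD2, chr2:65066235-65066294: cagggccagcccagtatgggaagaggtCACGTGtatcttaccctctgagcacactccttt
MERTK, chr2:112732753-112732812: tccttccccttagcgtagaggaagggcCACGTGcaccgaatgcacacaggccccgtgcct
RELL1, chr4:37668499-37668558: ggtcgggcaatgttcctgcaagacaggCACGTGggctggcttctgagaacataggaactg
PER1, chr17:8057029-8057088: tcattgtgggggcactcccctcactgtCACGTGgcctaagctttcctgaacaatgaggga
The next set carries more than 1 E-box within the same 200 bp, which 9 of the peaks did; 4 are shown for the range of spacings.
HLF, chr17:53315729-53315866: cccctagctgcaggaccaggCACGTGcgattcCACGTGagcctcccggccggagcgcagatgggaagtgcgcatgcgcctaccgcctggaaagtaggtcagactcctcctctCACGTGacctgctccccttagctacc
DLG5, chr10:79633800-79633867: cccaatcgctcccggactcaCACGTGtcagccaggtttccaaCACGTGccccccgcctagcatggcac
KCNIP1, chr5:169911282-169911360: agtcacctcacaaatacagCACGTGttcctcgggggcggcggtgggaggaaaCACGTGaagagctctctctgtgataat
CSNK1D, chr17:80245995-80246133: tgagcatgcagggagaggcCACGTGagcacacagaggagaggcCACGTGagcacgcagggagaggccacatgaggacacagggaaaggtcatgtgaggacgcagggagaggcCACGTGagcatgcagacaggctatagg
The last pair has an AP-1 site and no E-box, as 73 of the peaks did, and both are among the strongest of that kind.
CCDC88B, chr11:64102743-64102802: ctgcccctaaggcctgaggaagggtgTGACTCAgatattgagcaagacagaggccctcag
LPIN1, chr2:11837810-11837869: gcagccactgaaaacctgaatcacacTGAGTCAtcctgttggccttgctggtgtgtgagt

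Most lost BMAL1-only distal peaks were small. Fold enrichment, the peak height over the local background as the peak caller gives it, had a median of 6.22 and ran from 2.12 to 16.2. The −log10 p of the peaks had a median of 16.1 (range 9.02 to 73.0), and their median width was 186 bp. The 85 retained peaks of the same kind, which overlapped a shBMAL1 BMAL1 peak, had a median fold of 10.2, a median −log10 p of 50.5 and a median width of 318 bp. The 472 lost BMAL1-only promoter peaks were close to the distal ones, with a median fold of 6.08 and a median −log10 p of 18.3. The 263 HIF2α-only distal peaks that had no overlapping HIF2α peak after BMAL1 knockdown had a median fold of 6.59 and a median −log10 p of 16.2 in their own list.

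Fate followed strength within the distal BMAL1-only peaks. In the weakest quintile of the whole list by −log10 p, 108 of 112 were lost (96.4%). The shares in the next quintiles were 87.4%, 83.6% and 58.3%, and in the strongest quintile 2 of 39 were lost (5.13%). The lost peaks are thus mostly the weak end of the list, and any contrast with retained peaks is also a contrast of strength. Those 2 lay in introns of TTC34 (fold 16.2, −log10 p 73.0, 2931 bp downstream of the start site) and SRRM3 (fold 14.3, −log10 p 65.7), a splicing factor gene. Neither held an E-box, an HRE core or an AP-1 site, and their windows were 72.0% and 71.0% G or C.

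**Figure D1:**
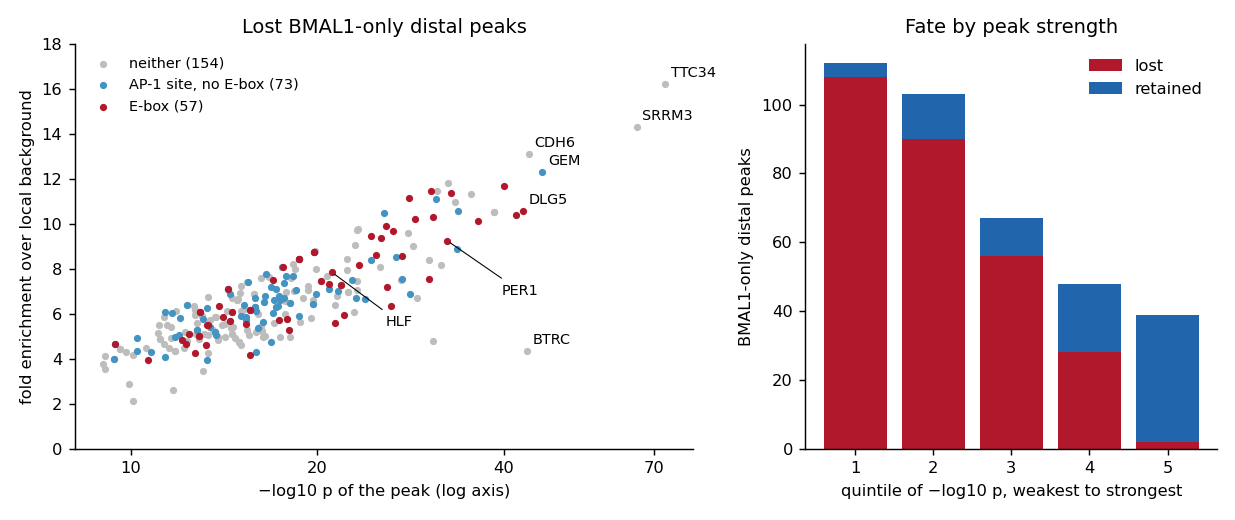
Left: fold enrichment against −log10 p (log axis) of the lost BMAL1-only distal peaks, 1 point per peak, coloured by the motif in the 200 bp around the summit; the peak whose window holds undetermined bases is drawn as neither. Right: number of distal BMAL1-only peaks lost or retained in each quintile of −log10 p of the whole list. TTC34 and SRRM3 stand above the other peaks, BTRC has a low fold (4.33) for its −log10 p (43.7), and the lost share drops from 96.4% to 5.13% across the quintiles.

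After TTC34 and SRRM3, the strongest peaks were spread over genes of unrelated function. The third, 18465 bp downstream of the start of GEM, a small GTPase gene, had a fold of 12.3 and an AP-1 site. The fourth lay 93280 bp upstream of CDH6, a cadherin of kidney tubule epithelium, with a fold of 13.1. The fifth peak lay within BTRC, which encodes an F-box protein that targets PER proteins for degradation. The fold of this peak was 4.33, and its midpoint lay 127 bp downstream of the start of RNU2-59P, a pseudogene copy of the U2 small nuclear RNA. The midpoint was called exonic, but exons of any annotated gene counted, so the exon need not be one of BTRC. Whether reads of other U2 copies contribute to this peak was not tested. The next were DLG5 (10.6), which encodes a polarity scaffold, RALGPS1 (10.4), SERTAD2 (11.7), the actin-binding gene LIMA1 (10.5) and the cell-death kinase gene RIPK1 (10.5), all values being fold enrichment. DLG5, RALGPS1 and SERTAD2 were the ones among these 10 with an E-box.

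By place, 158 peaks (55.6%, 95% Wilson interval 49.8 to 61.3) had their midpoint in an intron and 103 (36.3%) between genes. In exons, 22 (7.75%) lay outside coding sequence and 1 within it. Genes of every annotated kind counted here, RNA genes and pseudogenes included. The median distance to the nearest protein-coding start site was 16910 bp, and the middle 50% of peaks spanned 4920 to 40920 bp. The farthest lay 554840 bp away, and 30 lay at least 100000 bp away. Retained distal peaks had a median distance of 6987 bp and HIF2α-only lost distal peaks one of 17660 bp, so the medians of the lost distal peaks of both factors were close. Intergenic midpoints were more frequent than among retained distal peaks (36.3% against 17 of 85, 16.3 points, interval 5.17 to 25.4, adjusted exact p = 0.0116) and introns less frequent (55.6% against 70.6%, −15.0 points, adjusted exact p = 0.0313). Adjusted exact p-values here and below are from Fisher's exact test, two-sided over peaks, adjusted by Benjamini-Hochberg over 30 comparisons unless the peaks were first restricted by strength or promoter limits, where the adjustment ran over that setting's own comparisons. The intervals of differences are Newcombe's. Compared within quintiles of −log10 p by the Cochran-Mantel-Haenszel test, adjusted over 22 comparisons as are all later values within quintiles, neither difference in place passed the threshold (adjusted p = 0.591 and 0.384, n = 369 peaks).

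**Figure D2:**
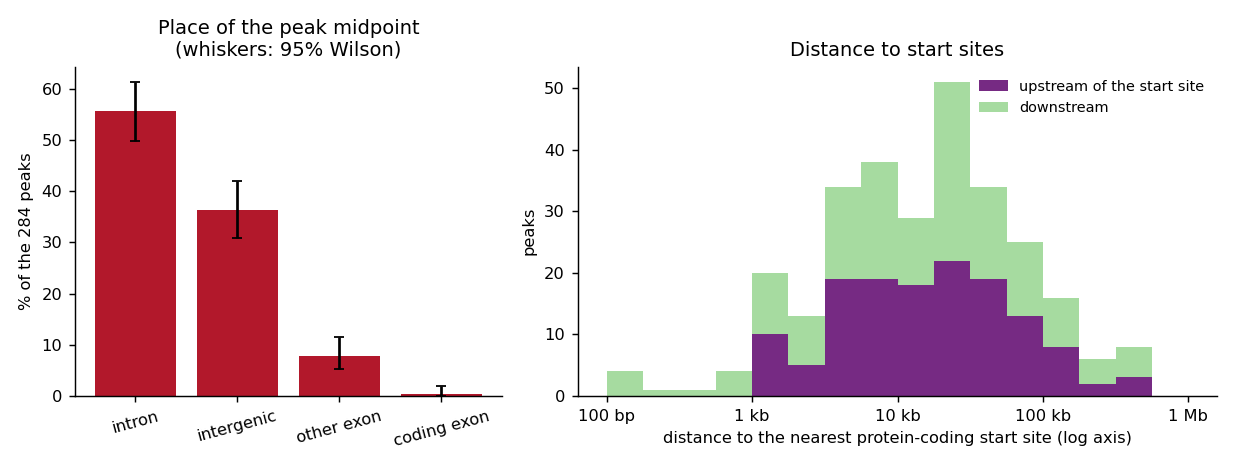
Left: share of the lost BMAL1-only distal peaks with the midpoint in each kind of annotated sequence, with 95% Wilson intervals. Right: number of peaks by distance to the nearest protein-coding start site (log axis), split by side. Introns hold 55.6% and the median distance is 16910 bp.

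At the limits of the rule, the lost peak nearest to counting as a promoter lay 103 bp downstream of a start of PPFIBP2, which encodes a liprin (fold 11.5), and the next 109 bp downstream of one of RTEL1, a helicase gene (fold 7.57). On the other side, lost promoter peaks lay 99 bp downstream of an unnamed transcript (fold 5.90) and 98 bp downstream of FBXO24 (fold 3.00). No lost peak came within 500 bp of a shBMAL1 BMAL1 peak. The smallest gap was 1631 bp, at SDHA, which encodes a subunit of respiratory complex II (fold 4.86). A neighbouring peak near the same gene (fold 3.69) counted as retained through an overlap of 23 bp. The smallest gap to a shControl HIF2α peak was 466 bp, near CDC42EP4. With gaps of under 500 bp also counted as overlap, 283 peaks met the rule.

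The E-box CACGTG was present in 57 of the 283 summit windows that could be read (20.1%, interval 15.9 to 25.2). A summit window is the 200 bp around the base of highest signal, and the window of 1 peak holds undetermined bases. In the flanks, 200 bp windows placed 2000 bp to each side of the same summits, the share was 4.42% (interval 3.01 to 6.44, 566 windows). Over all readable BMAL1 summits of the list it was 12.9%. Lost promoter peaks had an E-box in 17.2% (a difference of 2.98 points, interval −2.64 to 8.93, adjusted exact p = 0.473). HIF2α-only lost distal peaks had one in 4.56% (15.6 points fewer than the BMAL1 peaks, interval 10.2 to 21.0, adjusted exact p = 9.252e-08). The E-box share thus differed between the lost distal peaks held by BMAL1 alone and by HIF2α alone. It did not pass the test between the lost distal and lost promoter peaks of BMAL1. Retained peaks are not covered by these 2 comparisons.

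Retained distal peaks held fewer E-boxes, in 5 of 85 windows (5.88%, 14.3 points fewer, interval 5.93 to 20.3, adjusted exact p = 0.00341). That E-box peaks were retained less often was known from earlier results of these data, so this p-value is not independent support. With peaks compared within quintiles of −log10 p, the difference was 15.3 points with an adjusted p of 0.0665 (n = 368 peaks). Restricted to peaks with a −log10 p between 11.6 and 28.4, the 10th and 90th percentile of the lost peaks, it was 8.89 points with 27 retained peaks (over 22 comparisons, adjusted exact p = 0.598). Promoters called on wider limits also ended the call (12.02 points, adjusted exact p = 0.109), as did promoters of protein-coding genes alone (7.86 points, adjusted exact p = 0.116). Among the lost peaks the E-box share was 15.5%, 15.5% and 14.1% in the 3 weaker quartiles of −log10 p and 35.7% (25 of 70) in the strongest. The median fold was 7.21 with an E-box and 6.14 without.

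E-boxes sat near the summits. The nearest E-box lay a median of 37.5 bp from the summit, and in 41 of the 57 peaks within 50 bp. The central 200 bp held 69 E-boxes over all peaks, and the outer 400 bp of the surrounding kilobase held 29. The base G stood 2 positions outside the hexamer on at least 1 side in 46 of the 68 E-boxes that lay whole inside the windows (67.6%), in 85 of 108 E-boxes of lost promoter peaks (78.7%) and in 5 of 12 of HIF2α-only lost distal peaks. The PER1, MERTK and RELL1 sequences above show this base to the left of the capitals. The 8-letter palindrome with T before and A after the hexamer occurred in 1 of the 68 and in 13 of the 108. These differences in surrounding bases were not tested.

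Of the 57 peaks, 48 had 1 E-box in the window, 7 had 2 and 2 had 3. The triple windows were at HLF and CSNK1D. HLF encodes a PAR-family bZIP factor of the clock output, and its peak lay 26540 bp upstream of the start site with a fold of 7.85. The first pair of its E-boxes is 6 bp apart and the next gap is 74 bp, as the printed sequence shows. CSNK1D encodes the casein kinase that phosphorylates PER proteins, and its peak lay 14529 bp upstream with a fold of 4.15. The window reaches past the called peak, and the first of the 3 E-boxes lies before the start of that peak. The gaps there are 18 and 63 bp, and in the printed sequence each of the 3 E-boxes follows the same letters, gagaggc, in what reads as a short tandem repeat. The pairs at DLG5 and KCNIP1 are 16 and 27 bp apart, and those at SPTBN1, KLHL29, ZMIZ1, GSE1 and PIEZO2 are 21 to 77 bp apart. At ZMIZ1, GSE1 and PIEZO2, 1 E-box of each pair lies partly or wholly outside the called peak.

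The AP-1 site TGAGTCA was more frequent than the E-box. It occurred in 93 of 283 windows (32.9%, interval 27.7 to 38.5) against 4.24% in the flanks and 13.0% over all BMAL1 summits. HIF2α-only lost distal peaks held it at nearly the same share (32.7%, a difference of 0.16 points, interval −7.70 to 7.98, adjusted exact p = 1.0). Lost promoter peaks held it in 5.51% (27.4 points fewer, interval 21.6 to 33.3, adjusted exact p = 8.634e-22). Among the lost BMAL1-only peaks AP-1 sites thus went with distal position. HIF2α promoter peaks were not compared. Retained distal peaks held it in 17.6% (adjusted exact p = 0.0132). Within quintiles of −log10 p that difference was 4.05 points (adjusted p = 0.738, n = 368 peaks).

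E-box and AP-1 occurred in the same window in 20 peaks. An AP-1 site was in 35.1% of windows with an E-box and in 32.3% of those without. An E-box or an AP-1 site was found in 130 windows (45.9%), and 38 (13.4%) held none of the 8 motifs searched. No match says only that these letters are not in the window.

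RUNX and TEAD letters were also more frequent than in the flanks. RUNX (TGTGGT) was in 26.9% of windows against 16.3% of flanks and 11.4% over all BMAL1 summits, and TEAD (GGAATG) in 19.1% against 9.54% and 10.7%. Both were more frequent than in lost promoter peaks (RUNX 6.14%, adjusted exact p = 4.712e-14, and TEAD 8.90%, adjusted exact p = 0.00019). Those promoter shares were below the flanks of the same promoter peaks (11.97% and 11.86%). The median GC content of the windows was 57.0% in the lost BMAL1-only distal peaks and 68.5% in the lost promoter peaks. It was 66.0% in retained distal and 50.5% in HIF2α-only lost distal peaks. The part of base composition in these contrasts was not tested. Neither passed the threshold against HIF2α-only lost distal peaks, with differences of −2.04 points (interval −9.55 to 5.45) and −0.69 points (interval −7.37 to 5.93). RUNX exceeded the retained distal share (8.24%, adjusted exact p = 0.000448), which was below the flanks of the retained peaks (12.35%). Within quintiles of −log10 p that call did not hold (13.1 points, adjusted p = 0.152, n = 368 peaks). TEAD did not pass the threshold against retained distal peaks (8.49 points, interval −0.81 to 15.5, adjusted exact p = 0.121).

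The hypoxia response element core, ACGTG or GCGTG counted outside E-boxes, was in 36.4% of windows against 23.3% of flanks and 52.5% over all BMAL1 summits. HIF2α-only lost distal peaks had it in 60.5% (a difference of −24.1 points, interval −31.9 to −15.7, adjusted exact p = 9.252e-08), and lost promoter peaks in 60.4% (adjusted exact p = 1.061e-09). The retained distal share was 42.4%, with a difference of −5.96 points (interval −17.9 to 5.54, adjusted exact p = 0.507). In the lost distal peaks of BMAL1 and HIF2α the E-box and the HRE core thus differed in opposite directions, while AP-1, RUNX and TEAD did not pass the test in either direction. The E-box and HRE counts are not independent, since an E-box holds ACGTG and was not counted as an HRE core. Among the lost BMAL1-only distal peaks, 35 windows had an E-box and no other core. The HRE difference with E-box cores counted was not computed.

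**Figure D3:**
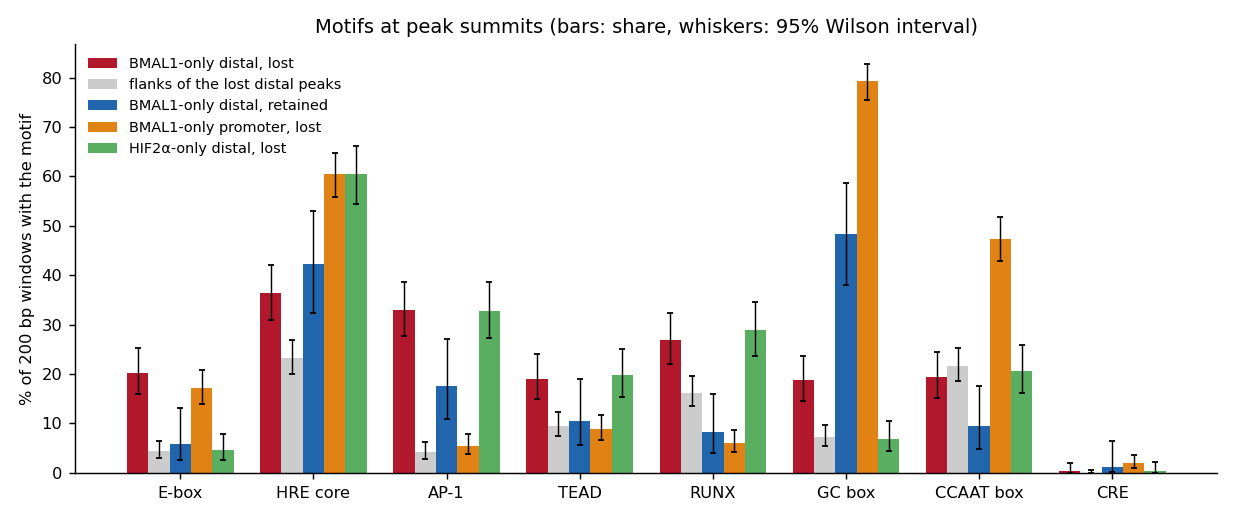
Share of 200 bp summit windows with each motif in the lost BMAL1-only distal peaks, in their flanks and in the other classes, with 95% Wilson intervals. The E-box reaches 20.1% in the lost BMAL1-only distal peaks and 4.56% in the HIF2α-only ones, while AP-1 is at 32.9% and 32.7%.

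The GC box and CpG-rich windows were rarer in the lost distal peaks than in the promoter or retained peaks. The GC box GGGCGG was in 18.7% of windows, against 7.24% of flanks and 61.6% over all BMAL1 summits. Lost promoter peaks had it in 79.2% (adjusted exact p = 1.815e-60) and retained distal peaks in 48.2% (a difference of −29.5 points, interval −40.8 to −18.1, adjusted exact p = 5.935e-07). HIF2α-only lost distal peaks had fewer GC boxes (6.84%, adjusted exact p = 0.00011). Windows with a GC content of at least 50% and an observed-to-expected CpG ratio of at least 0.6, as in CpG islands, made up 9.19% of the lost distal peaks and 44.7% of the retained ones (−35.5 points, interval −46.5 to −24.7, adjusted exact p = 1.574e-11).

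Of these contrasts with retained peaks, the CpG difference was the one that passed within quintiles of −log10 p (−26.2 points, adjusted p = 0.000142), while the GC box did not (−17.2 points, adjusted p = 0.0618, n = 368 peaks). In the matched range of −log10 p the CpG difference was −12.4 points with an adjusted exact p of 0.179. The CCAAT box was in 19.4% of windows, below the flanks (21.7%) and the whole list (32.1%), and in 47.2% of lost promoter peaks (adjusted exact p = 4.712e-14). Retained distal peaks had it in 9.41% (10.0 points fewer, interval 0.93 to 16.8, adjusted exact p = 0.058), which did not pass the threshold. The CRE TGACGTCA was in 1 window, against 0.940% over all BMAL1 summits. All motifs were searched on both strands, and HRE cores inside an E-box were counted as E-box alone.

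**Figure D4:**
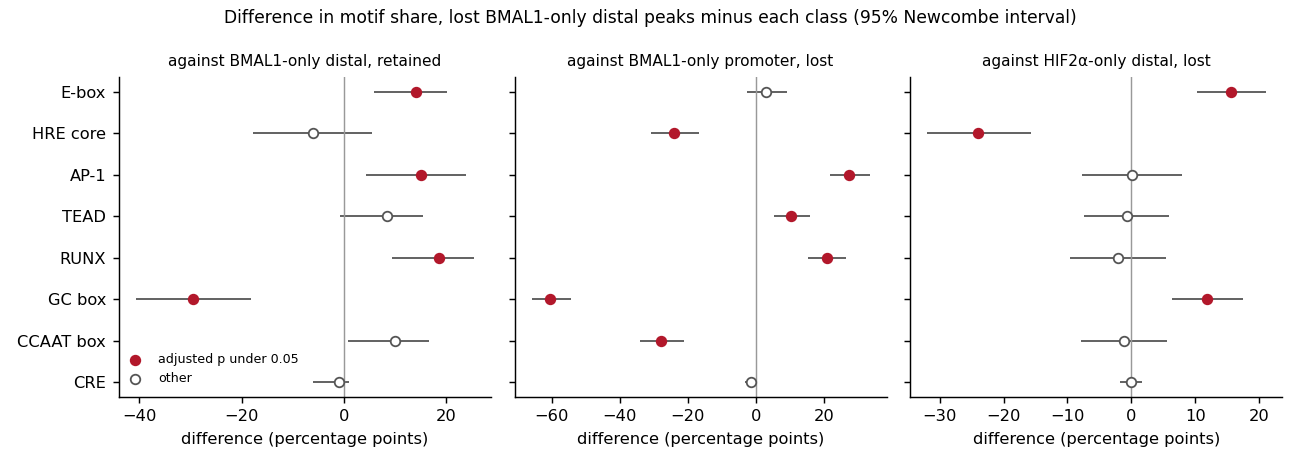
Difference in motif share, lost BMAL1-only distal peaks minus each other class, in percentage points, with 95% Newcombe intervals; filled points have an adjusted p under 0.05. GC boxes lie far to the left against promoter peaks (−60.5 points). Against HIF2α-only peaks the E-box (15.6) and the HRE core counted outside E-boxes (−24.1) lie on opposite sides of 0.

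E-boxes and AP-1 sites lay unevenly about the summits. Within 200 bp of a summit, 58 of 84 E-boxes and 136 of 195 AP-1 sites lay on the side of lower coordinates, with median positions of −39.5 and −65.0 bp. GC boxes lay less unevenly, with 110 on the lower and 77 on the higher side (median −32.5 bp). HRE cores were nearly even, with 137 on the lower and 122 on the higher side (median −18.0 bp). In the HIF2α-only lost distal peaks, however, HRE cores were uneven, with 220 on the lower and 139 on the higher side (median −39.0 bp). The lower side also held more of the AP-1 sites in the HIF2α-only lost distal peaks (110 of 160) and in the lost promoter peaks (32 of 48). The offset of AP-1 sites was thus seen in both lists, and its cause was not tested. With the window moved 50 bp to lower coordinates, an alternative chosen after this was seen, the E-box share was 21.9% and the AP-1 share 39.2%. Every comparison that had passed the threshold on motifs passed it with the moved window too.

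**Figure D5:**
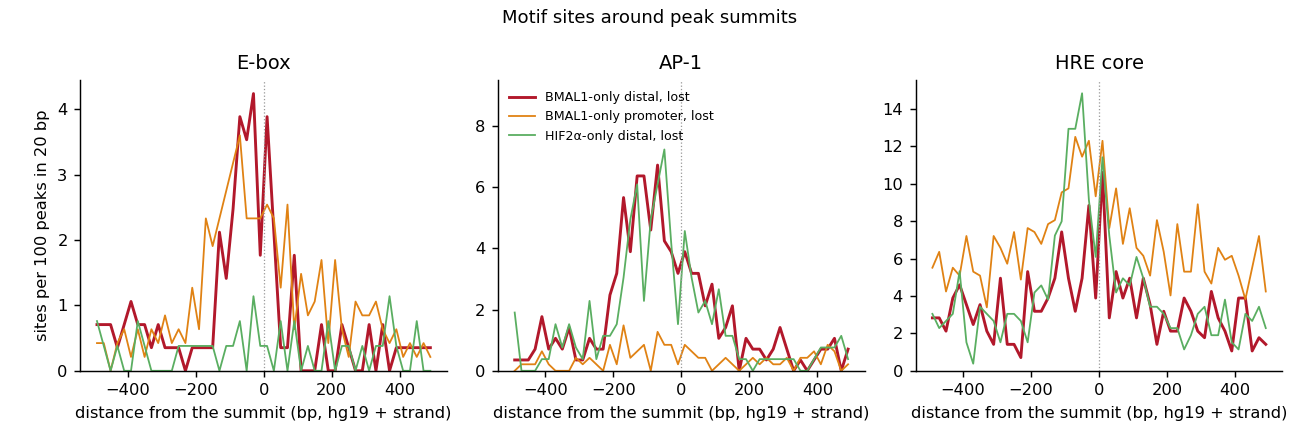
Sites per 100 peaks in 20 bp steps by distance from the summit (bp, forward strand of hg19, 0 at the dotted line) for the E-box, AP-1 and the HRE core in the lost BMAL1-only distal, lost BMAL1-only promoter and lost HIF2α-only distal peaks. The E-box peak is shared by both BMAL1 classes and the AP-1 peak by both distal classes, and both are centred below 0.

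After BMAL1 knockdown, 19 of the 284 places (6.69%, interval 4.32 to 10.2) overlapped a HIF2α peak, although none had one in shControl. Over the whole BMAL1 list the share was 14.5%, a figure that includes the peaks shared with HIF2α in shControl. Of the retained distal peaks 9 of 85 did (10.6%), a difference of −3.90 points (interval −12.5 to 2.15, adjusted exact p = 0.369). The HIF2α peaks at the 19 places were mostly in the weaker part of their list. Their fold ran from 4.78 to 9.20 with a median of 6.27, against 7.40 for the whole shBMAL1 HIF2α list, and the best ranked 209 of 1089. Among the 19, 7 held an E-box, 5 an HRE core and 3 an AP-1 site. The strongest BMAL1 peaks among them were CDH6 (BMAL1 fold 13.1, HIF2α fold after knockdown 5.62), BTRC (4.33 and 4.78) and ASAP1 (11.5 and 9.20), an Arf GTPase regulator gene. The HIF2α peak ranked 209 was the one at BTRC, on the U2 pseudogene copy described above. Whether reads of other U2 copies contribute to it was not tested.

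The nearest protein-coding genes of the 284 peaks numbered 271, of which 259 had 1 such peak and 11 had 2. EEPD1, an endonuclease gene, had 3 (fold 5.50, 6.78 and 5.11), and its promoter peak (fold 20.4) was retained. Introns or exons of GRIK4, KAZN, NIBAN2, PPL and ZMIZ1 each held 2. A promoter BMAL1 peak was also called at 31 of the 271 genes (11.4%), and a retained BMAL1 peak of any kind at 24. Most of the genes thus had no other BMAL1 peak assigned to them, and 56 had at least 1.

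Among 21 core clock genes and clock-linked repressors and PAR bZIP genes, 13 were the nearest gene of some BMAL1 peak and 3 of a lost BMAL1-only distal one. PER1, the clock repressor, had a lost intronic peak of fold 9.25 and −log10 p 32.4, 1643 bp upstream of the nearest start site and 1960 bp from the nearest shBMAL1 BMAL1 peak. PER1 also had a retained promoter peak of fold 26.9 in shControl, which overlapped HIF2α. Both shControl PER1 peaks held an E-box. HLF had the triple E-box peak described above and no other BMAL1 peak. BHLHE40, which encodes a repressor that competes for E-boxes, had a lost peak 14797 bp downstream of its start (fold 5.68, 1 E-box). Its promoter peak (fold 4.06) and another distal peak (fold 6.49) were absent after knockdown as well, and both overlapped HIF2α.

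Of 13 clock-controlled output genes 3 had a lost BMAL1-only distal peak, PER1 being on both lists. LPIN1, a phosphatidate phosphatase and coactivator gene, had an intronic peak 20091 bp downstream of its start with a fold of 8.87, an AP-1 site and no E-box. TSC22D3, which encodes the glucocorticoid-induced leucine zipper protein, had a peak 31251 bp downstream of its start (fold 6.63) with none of E-box, HRE core or AP-1. Of 31 hypoxia and HIF2 pathway genes, 12 had some BMAL1 peak and none a lost BMAL1-only distal one. The rule itself lowers that last count, since it removed every BMAL1 peak that overlapped HIF2α in shControl. Of 13 AP-1 family and related genes 1 did, the small Maf gene MAFK (fold 5.72, with an AP-1 site). Of 18 renal epithelial genes 1 did, CDH6. The clock list is thus represented by single peaks at single genes, and no list was tested. Some BMAL1 peak of any kind was assigned to 5 of the output genes, 3 of the AP-1 genes and 3 of the renal genes. The share over all protein-coding genes was not computed, so no list count can be read as high or low. On every list, genes of chromosome 19 could have no lost BMAL1-only distal peak, since the rule left that chromosome out.

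The 10 strongest peaks with an E-box were, after DLG5, RALGPS1 and SERTAD2, those at MERTK, a receptor tyrosine kinase of apoptotic cell clearance (fold 10.1), RELL1 (11.4), PER1 (9.25), the galactose mutarotase gene GALM (10.3), PPFIBP2 (11.5), RIPOR3 (7.54) and the potassium channel-interacting protein gene KCNIP1 (10.2). Like PER1, RELL1 had a retained promoter peak with an E-box (fold 22.1), and its lost peak lay 1571 bp upstream of the nearest start. The lost peaks at RALGPS1, MERTK, GALM, PPFIBP2, DLG5 and RIPOR3 were the single BMAL1 peaks assigned to those genes. KCNIP1 had another distal peak (fold 7.95), which overlapped HIF2α and was also absent after knockdown.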

How the data were processed

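BMAL1, HIF2α and IgG were profiled by CUT&RUN in 15 libraries. According to the methods, the authors aligned paired reads with Bowtie2 2.5.3 to hg19, removed duplicates, called peaks with MACS2 2.2.9.1 at p of 1e-05 and removed blacklisted regions with bedtools 2.31.1. They left out 1 shBMAL1 BMAL1 library with few reads. Whether IgG served as the control is not given in the sources used here. The deposited lists pool the libraries of a group and give fold enrichment (a ratio), −log10 p-values and −log10 q-values (not used) by the authors' peak caller, and positions and summit offsets as deposited. The smallest −log10 p in the lists was 8.64 to 9.07. The methods state an approximate depth, but no read counts were used and each library's depth could not be read from the lists, so intervals cover counting of peaks only.

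Start sites and gene models were from GENCODE 44 lifted to GRCh37, and sequence from GRCh37, which shares hg19 coordinates. Overlap meant at least 1 bp. Windows of 200 bp around summits were searched for 8 motifs. Shares were tested with Fisher's exact test, two-sided (scipy 1.17.1), with Benjamini-Hochberg adjustment over 30 comparisons, Wilson and Newcombe 95% intervals, and Cochran-Mantel-Haenszel tests within quintiles of −log10 p, adjusted over 22 comparisons (statsmodels 0.14.6). Fisher's exact test, the overlap calls and the motif search were checked on simulated data. The adjustment, the intervals and the Cochran-Mantel-Haenszel tests were not. Repeats were not compared, since the reference used here does not mark them. Named were the 10 strongest peaks, the 10 strongest with an E-box, those with 2 or more E-boxes, genes nearest to 3 or more, and genes on 5 lists; other names mark limits of the rule or strong overlaps. The peaks and lists were chosen with earlier results of these data known.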

Additional observations from a re-analysis of the deposited data

How the results depend on the processing

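Of 325 recomputed values of 31 results, 268 kept both their sign and their call, and the number of peaks stayed between 227 and 322. All 22 changes of sign were of differences past the threshold in neither setting. Differences below are in percentage points, lost BMAL1-only distal peaks minus the class named, and the cause of a change was not tested. Within quintiles of −log10 p, these differences from retained distal peaks were no longer past the threshold: E-box 15.3, AP-1 4.05, RUNX 13.1, GC box −17.2, introns −9.85 and intergenic sequence 6.54, and non-coding exons turned to 2.98. Within the 10th to 90th percentile of −log10 p, which left 27 retained peaks, the same held for E-box 8.89, AP-1 1.33, RUNX 7.70, GC box −12.3, introns −19.2, intergenic sequence 19.98 and CpG-rich windows −12.4. With promoters taken as 2500 bp around starts, the differences from retained peaks lost the call for E-box (12.02), AP-1 (11.6), introns (−9.80) and intergenic sequence (9.92) and gained it for the CCAAT box (15.1), while E-box against lost promoter peaks turned to −0.19 and TEAD against HIF2α-only peaks to 1.06. With protein-coding start sites alone, E-box (7.86) and introns (−9.52) lost it, TEAD (9.14) and CCAAT box (9.32) gained it, and AP-1 against HIF2α-only peaks turned to −0.35. It also turned with gaps under 500 bp as overlap (−0.33). With chromosome 19 included, TEAD (10.1) and CCAAT box (9.78) against retained peaks gained the call, coding exons turned to −0.96, and against HIF2α-only peaks AP-1 turned to −1.19 and CCAAT box to 0.48. In windows of 100 bp, AP-1 (8.49) and RUNX (9.66) against retained peaks lost it, and TEAD (1.09) and CCAAT box (2.64) against HIF2α-only peaks turned. In windows of 400 bp, TEAD (12.5) and CCAAT box (22.3) against retained peaks and CRE against lost promoter peaks (−2.90) gained it, HRE core against retained peaks turned to 0.42 and E-box against lost promoter peaks to −3.65, and TEAD (0.57), RUNX (1.31) and CCAAT box (2.67) against HIF2α-only peaks turned. Over whole peaks, AP-1 (8.51) and RUNX (8.26) against retained peaks lost it, HRE core gained it (−15.6), and TEAD (2.84), CCAAT box (1.86) and CRE (0.33) against HIF2α-only peaks turned. With a −log10 p of at least 12, introns lost it (−12.9), and AP-1 (−2.01) and TEAD (1.30) against HIF2α-only peaks turned. Without peaks on coding exons, introns lost it (−13.7) and CRE against lost promoter peaks gained it (−1.86). With the window moved 50 bp, chosen after seeing the data, HRE core against retained peaks turned to 0.52 and CCAAT box against HIF2α-only peaks to 1.59. No paired analysis was possible because each group has a single peak list without replicate numbers, and for the same reason no replicate could be left out.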

Other observations

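Among the lost BMAL1-only distal peaks, 2 had a fold under 5 with a −log10 p over 30, the peaks at BTRC (fold 4.33, −log10 p 43.7) and near COL6A2 (fold 4.77, −log10 p 30.8), picked out after their values were seen. Chromosome Y carried 3 of the 284 peaks among 6 BMAL1 peaks called there, and chromosome 13 carried none among 10. Chromosome 1 carried 33 and chromosome 7 carried 28.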
